A study of Mus musculus with 6 samples.

Results

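The 10 genes described here handle iron or guard membranes against ferroptosis, a form of cell death driven by iron-dependent peroxidation of membrane lipids. They are Gpx4, Slc7a11, Acsl4, Hmox1, Nqo1, Fth1, Ftl1, Ncoa4, Tfrc and Slc40a1, chosen by symbol. All 10 of 10 were present among the 24419 genes of the deposited table, and all 10 passed a filter of at least 1 unit in at least 3 libraries, which 14796 genes passed. The study sequenced RNA of sorted, neuron-enriched cells from the cortex around an infarct in male mice, 4 days after transient occlusion of the middle cerebral artery for 60 minutes. The 3 libraries labelled control came from mice of genotype Padi4flox/flox, whose Padi4 alleles carry loxP sites. The 3 libraries labelled cKO came from mice of genotype Slc17a7-cre; Slc32a1-cre; Padi4flox/flox, which add Cre driven from the genes of the glutamatergic and GABAergic vesicular transporters. The floxed alleles and the stroke are shared by both groups, and no uninjured group is among the 6 libraries. Age, and whether each library came from its own animal, are not given in the labels, and the p-values below rest on the spread among libraries, part of which may be technical.

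Iron enters most cells as transferrin through the transferrin receptor (Tfrc), is stored inside a ferritin shell of heavy and light chains (Fth1, Ftl1), is released when the cargo receptor Ncoa4 delivers ferritin to lysosomes, and leaves through ferroportin (Slc40a1). Gpx4 is the selenoenzyme that reduces lipid hydroperoxides with glutathione, and Slc7a11 is the cystine-glutamate exchanger subunit that supplies cystine for glutathione. Acsl4 loads polyunsaturated fatty acids into the phospholipids that peroxidise. Hmox1 breaks heme down and frees its iron, and Nqo1 reduces quinones. In brain, oligodendrocytes are known as the cells richest in iron and ferritin.

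Iron-regulatory proteins, encoded by Aco1 and Ireb2, bind a hairpin in some of these mRNAs, the iron-responsive element. In a 5′ UTR the bound hairpin blocks translation, and in the 3′ UTR of Tfrc it protects the mRNA from decay. The elements are shown because they part the members whose mRNA level iron is known to set from those controlled at translation, which RNA sequencing does not read. They were sought in GENCODE M21 coding transcripts (GRCm38) on the sense strand as a C, any 5 bases and the loop CAGTGN, with the 5 bases before the loop able to pair with the 5 after it, G-T pairs allowed. A match was found in the UTRs of 4 of the 10 members. Such a match is held in a 5′ UTR by 0.142% of 21901 coding genes and in a 3′ UTR by 0.589%. Each line gives 30 bases, 5′ to 3′, with the 6 loop bases in capitals.
Fth1, 5′ UTR, chr19:9982732-9982761, plus strand: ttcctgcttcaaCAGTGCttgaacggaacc
Ftl1, 5′ UTR, chr7:45459778-45459807, minus strand: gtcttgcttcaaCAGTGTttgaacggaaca
Slc40a1, 5′ UTR, chr1:45925464-45925493, minus strand: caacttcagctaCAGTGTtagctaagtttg
Tfrc, 3′ UTR, chr16:32631219-32631248, plus strand: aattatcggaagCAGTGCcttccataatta
Tfrc, 3′ UTR, chr16:32631598-32631627, plus strand: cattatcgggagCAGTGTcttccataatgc
Tfrc, 3′ UTR, chr16:32631663-32631692, plus strand: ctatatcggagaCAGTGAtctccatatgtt
Tfrc, 3′ UTR, chr16:32631710-32631739, plus strand: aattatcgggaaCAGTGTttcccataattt
The 3 hairpins of the storage and export genes stand upstream of the coding sequence, and the 4 of Tfrc stand downstream of it. Of the wider pathway genes listed below, 2 (Keap1 and Secisbp2) held such letters, in their coding sequence.

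Before any comparison, some facts of the libraries bear on what follows. Values are scaled CPM, that is read counts scaled for library size and by a further factor per library, and depth ran from 10094145 to 24056755 reads. Replicate 2 of each group had the fewest detected genes, 15261 in control and 14042 in cKO. Padi4 was detected only in libraries labelled cKO, with 0, 3 and 12 reads against 0 in each control (log2 difference 0.32, two-sided exact permutation p = 0.4, smallest possible 0.1). The direction is opposite to a loss of Padi4 in cKO, but reads this few cannot check the labels. The labels do not say which Padi4 exons Cre removes, so the reads could not be placed inside or outside the deletion, and group names below are those of the labels. Although the sort removed O4-positive cells, 10 oligodendrocyte markers summed to 11280 to 32657 per library, against 1335 to 6553 for 10 pan-neuronal markers. Microglia and macrophage markers summed to 28.9 to 70.5, and the 4 globin genes taken as red cell markers were at 0 everywhere, while Alas2, the erythroid heme synthesis gene, was at 3.06 to 13.2. In such bulk samples, fewer cells of a type and less RNA per cell cannot be told apart.

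Across the 10 members, the groups labelled cKO and control did not separate. By limma's moderated test with Benjamini-Hochberg adjustment, 0 of 10 members were called (adjusted p = 0.9996 for each), as were 0% of all tested genes. At an unadjusted p under 0.05, 0 of 10 members and 0.852% of tested genes passed, 50 genes higher (0.338%) and 76 lower (0.514%) in cKO. In 0 of 10 members did the 3 libraries of one group lie wholly above the other, against 4.7% of tested genes. On the log2(value + 1) scale 5 members had a higher mean in cKO and 5 a lower one. Their median log2 fold change, cKO minus control, was -0.02, the same as that of all tested genes. With both libraries numbered 2 left out, 0 genes were again called.

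**Figure D1:**
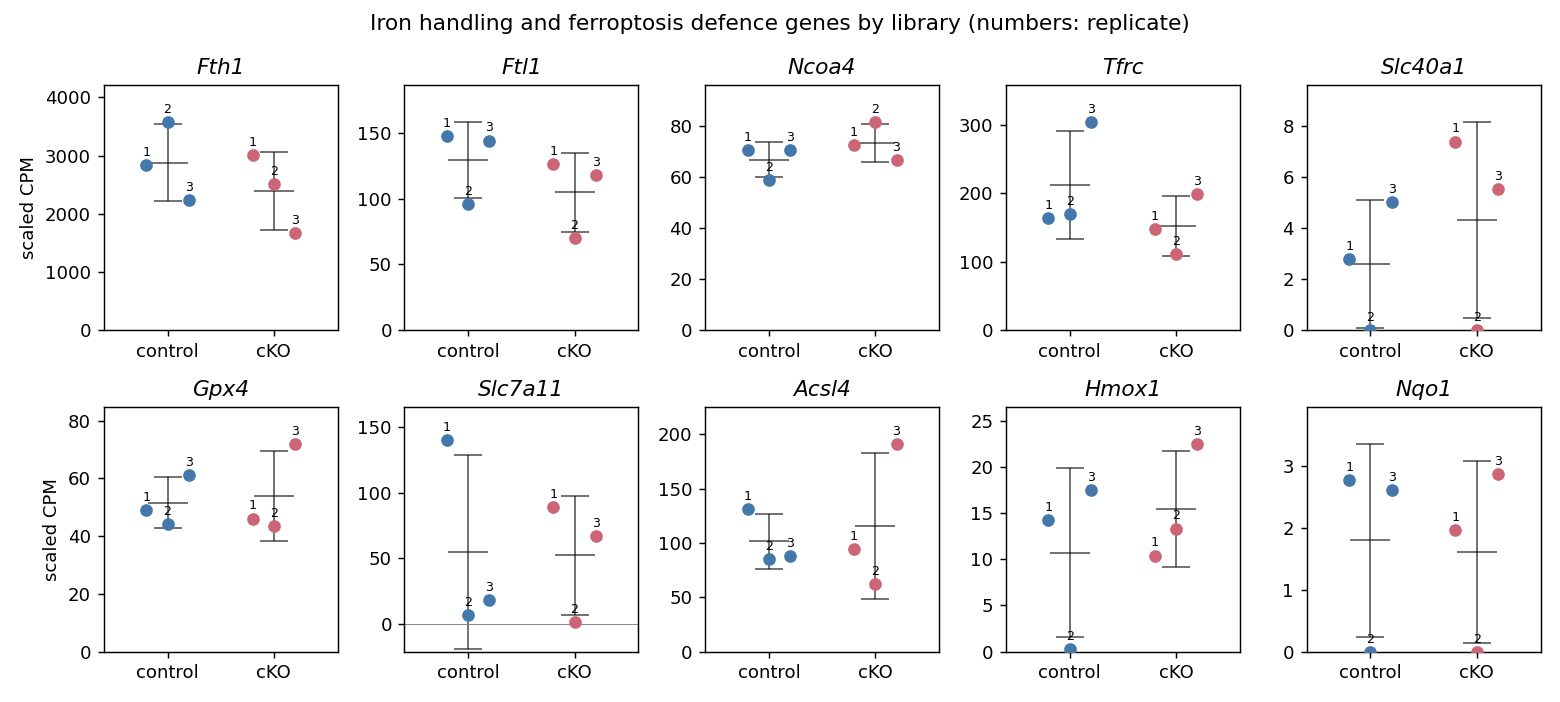
Scaled CPM of each gene (y axis, one scale per panel) in the 3 libraries labelled control (blue) and the 3 labelled cKO (red), numbered by replicate; wide bars are group means and error bars 1 SD. The groups overlap in every panel, and Slc40a1 and Nqo1 are at 0 in both libraries numbered 2.

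The storage genes were the most abundant members. Per kilobase of annotated exon, the median level over the 6 libraries was 769 for Fth1 and 91.2 for Ftl1, then 27.6 for Gpx4, 26.9 for Tfrc and 16.9 for Acsl4. Hmox1 followed at 7.89, Ncoa4 at 7.55, Slc7a11 at 3.04, Nqo1 at 1.47 and Slc40a1 at 0.431. The lowest Fth1 library, 481 per kilobase, lay above the highest Ftl1 library at 110.3, and the lowest Ftl1 library, 52.5, above the highest of any other member, 49.1 for Tfrc. Each other neighbouring pair in this order overlapped between libraries. Exon length here joins all annotated transcripts, retained introns included. For Fth1 it comes to 3469 bases, where the first-numbered GENCODE transcript has 929, so that its level per kilobase is a low estimate. For Slc40a1 it comes to 9000, where the first-numbered transcript has 3370. It is 9365 for Ncoa4 and 13922 for Slc7a11, against 1751 for Hmox1 and 1553 for Nqo1. The order among these lower members thus rests in part on the length used.

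Fth1, the ferritin heavy chain with the ferroxidase site (chromosome 19, 9980598 to 9985098, plus strand), had 2829, 3572 and 2237 scaled CPM in the control libraries, in replicate order. The cKO libraries had 3004.5, 2508 and 1668. The highest library was control replicate 2 and the lowest cKO replicate 3, with the others interleaved. Group means were 2879 ± 669 and 2393 ± 676 (SD, n = 3 each), a log2 fold change of -0.28 (95% interval -1.37 to 0.81). Without cKO replicate 3 this was -0.04. The myelin gene Mbp also had its highest level in control replicate 2 (4456 scaled CPM) and its lowest in cKO replicate 3 (1307). In cKO replicate 3 the sum of the 10 oligodendrocyte markers was lowest too, at 11280, but in control replicate 2 it was 21899, below both other controls and cKO replicate 1. Over that list 9 of 10 markers had a lower mean in cKO on the log2(value + 1) scale. In scaled CPM the control and cKO means were 279 and 297 for Mog, 666 and 672 for Mag and 1352 and 1626 for Cldn11. These were higher in cKO. Sums were 21899 to 27311 in control and 11280 to 32657 in cKO, with no marker at 0. The part of the oligodendrocyte markers in the Fth1 levels was not tested.

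Ftl1, the light chain (chromosome 7, 45457944 to 45459884, minus strand), followed another order. Its scaled CPM were 147.8, 96.2 and 144.5 in control and 126.4, 70.3 and 117.9 in cKO, so replicate 2 was lowest in each group while the groups overlapped. Means were 129.5 ± 28.9 and 104.9 ± 30.2 (SD, n = 3 each), with a log2 fold change of -0.32 (95% interval -1.08 to 0.44), which was -0.06 without cKO replicate 2. The ratio of the Fth1 value to the Ftl1 value was 37.1 and 35.7 in the libraries numbered 2, against 14.1 to 23.8 in the other 4. The first-numbered GENCODE transcripts of Fth1 and Ftl1 are 929 and 968 bases long. Per kilobase of all annotated exon the ratio was 5.46 to 14.3. The annotation lists pseudogene copies of both ferritin chains, none of them among the deposited genes. An antisense gene, Gm10252, shares 355 exon bases with Ftl1, and a miRNA gene on the same strand, Gm22133, shares 109. The labels state neither the strand setting nor the treatment of reads with several matches, so both levels carry that uncertainty.

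**Figure D2:**
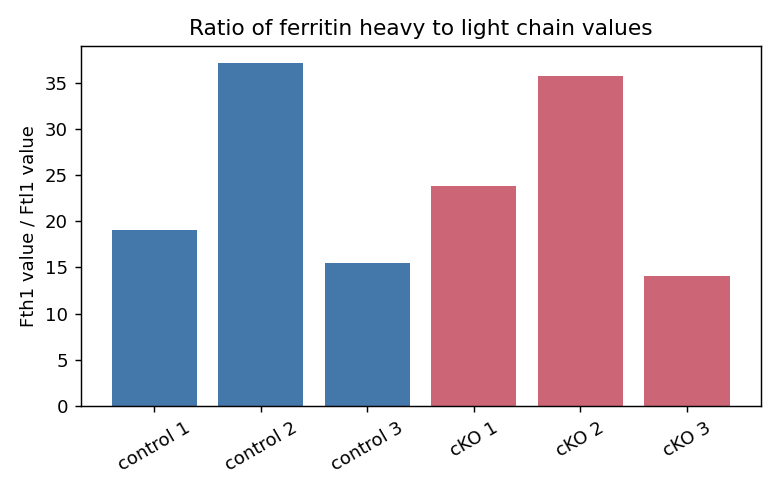
Ratio of the Fth1 value to the Ftl1 value (y axis, no unit) in each of the 6 libraries, control in blue and cKO in red. The libraries numbered 2 stand at 37.1 and 35.7, and the other 4 at 14.1 to 23.8.

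Ncoa4, the receptor for ferritin breakdown (chromosome 14, 32159865 to 32179855, plus strand), varied least. It had 70.7, 58.8 and 70.7 scaled CPM in control and 72.4, 81.4 and 66.6 in cKO. Its SD over the 6 libraries on the log2 scale was 0.15, larger than in 1.2% of tested genes, where the median gene had 0.61. Between groups the log2 fold change was 0.14 (95% interval -0.53 to 0.80).

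Tfrc, the uptake receptor (chromosome 16, 32608920 to 32632794, plus strand), had 163.2, 170.0 and 303.9 scaled CPM in control and 148.4, 111.0 and 198.6 in cKO. In replicate 3 it stood highest of each group, and cKO replicate 3 lay above 2 of the 3 controls. Means were 212 ± 79.4 and 153 ± 43.9 (SD, n = 3 each). The log2 fold change of -0.45 (SE 0.35, 95% interval -1.24 to 0.33) became -0.16 without control replicate 3. It was the member with the smallest unadjusted p, 0.23.

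Slc40a1, the iron exporter (chromosome 1, 45908068 to 45926523, minus strand), was detected in 4 libraries and not in the other 2. In control replicates 1 and 3 it had 2.77 and 5.0003 scaled CPM, from 30 and 90 reads, and in cKO replicates 1 and 3 it had 7.39 and 5.51, from 154 and 131 reads. In both libraries numbered 2 there were 0 reads, which allows up to 0.221 in control and 0.303 in cKO, taking 3 reads as the floor (counting error only). Its log2 fold change was 0.42 (95% interval -1.76 to 2.61), and -0.32 without control replicate 2 and 1.39 without cKO replicate 2.

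Among the defence genes, Gpx4 (chromosome 10, 80047166 to 80056439, plus strand) differed little between libraries. It had 49.0, 44.2 and 61.3 scaled CPM in control and 46.1, 43.6 and 71.9 in cKO. Replicate 3 was highest and replicate 2 lowest in both groups. Means were 51.5 ± 8.80 and 53.9 ± 15.7 (SD, n = 3 each), with a log2 fold change of 0.04. The 95% interval, -0.73 to 0.81, leaves room for a difference of either sign, and the estimate was -0.18 without cKO replicate 3.

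Slc7a11, the cystine transporter (chromosome 3, 49892526 to 50443614, minus strand), varied most. It had 140.0, 6.55 and 18.1 scaled CPM in control, in replicate order, and 88.9, 1.82 and 66.6 in cKO. The spread was 21.4-fold within control and 48.9-fold within cKO, from 18 reads in cKO replicate 2 to 1853 in cKO replicate 1. Its SD over the 6 libraries, 2.22 on the log2 scale, exceeded that of 99.8% of tested genes. Group means were 54.9 ± 73.9 and 52.4 ± 45.2 (SD, n = 3 each). The log2 fold change of -0.08 (95% interval -3.01 to 2.85) turned positive under a pseudocount of 5 (0.08) and under quantile normalization (0.15). It ran from -1.01 without control replicate 2 to 1.51 without cKO replicate 2.

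The order of the 6 libraries by Slc7a11 was the order by the summed pericyte, smooth muscle and fibroblast markers. From high to low it was control replicate 1, cKO replicate 1, cKO replicate 3, control replicate 3, control replicate 2 and cKO replicate 2. The 10 markers summed to 4844, 2790 and 2692 scaled CPM in the first 3 of these and to 678, 464 and 181 in the other 3. The collagen genes Col1a1, Col1a2 and Col3a1 held 1205, 1047 and 1100 of the 4844 in control replicate 1. Of the 10, 8 had their 3 highest levels in those same 3 libraries, and Lum was at 0 in cKO replicate 2. Rgs5 and Myh11 did not, with 116.0 and 109.5 in control replicate 3 against 81.7 and 51.8 in cKO replicate 3. By group the sums ran from 464 to 4844 in control and from 181 to 2790 in cKO, with 9 of 10 markers lower on average in cKO. The sum of 7 endothelial markers, at 46.2 to 140.5, also ranked the libraries this way, and Cdh5 made up 98.0 of the 140.5 in control replicate 1. Of the 7, only Cdh5 had its 3 highest levels in those same 3 libraries. No single one of the 7 had the full order of all 6 libraries, and of the 10 only Acta2, Dcn and Lum had it. In these libraries Slc7a11 thus stood high where both sums did, that of pericyte, smooth muscle and fibroblast markers and that of endothelial markers, in both groups. The part of those markers in its level was not tested.

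**Figure D3:**
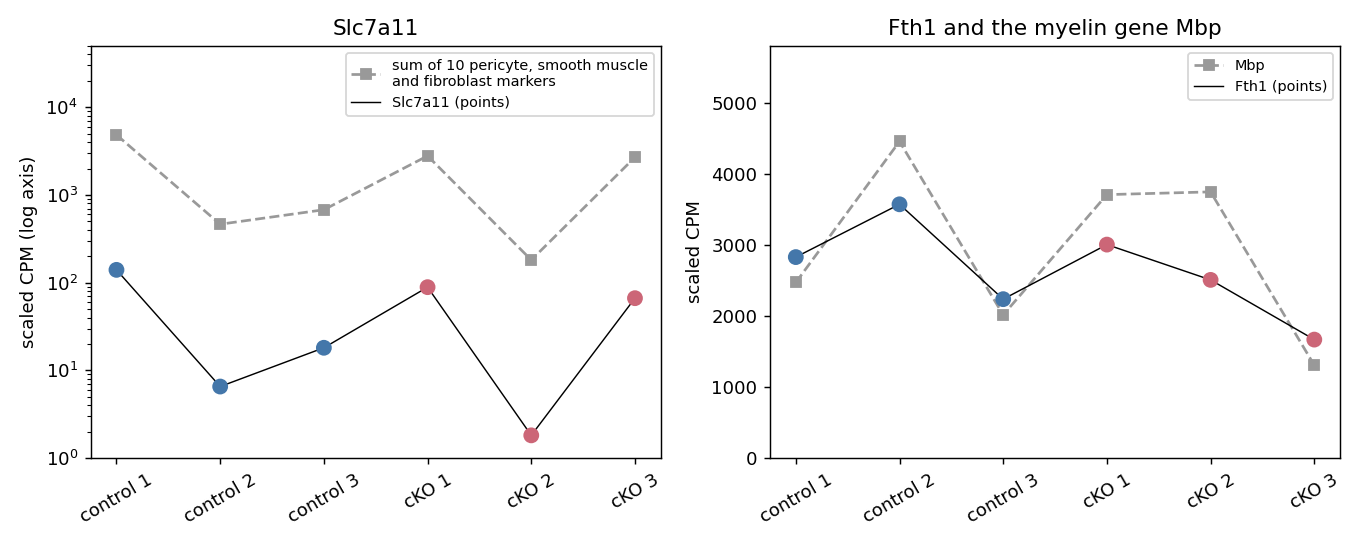
Left, Slc7a11 (circles) and the sum of 10 pericyte, smooth muscle and fibroblast markers (squares) in each library, in scaled CPM on a log axis; right, Fth1 (circles) and Mbp (squares) on a linear axis, with control circles in blue and cKO in red and lines only to guide the eye. Slc7a11 and the marker sum rank the 6 libraries alike, from control replicate 1 down to cKO replicate 2, while Fth1 and Mbp are both highest in control replicate 2 and lowest in cKO replicate 3.

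Acsl4, the lipid-loading enzyme (chromosome X, 142317993 to 142390535, minus strand), had 131.0, 85.5 and 88.2 scaled CPM in control and 94.8, 61.8 and 191.0 in cKO. The highest and the lowest library were both cKO, replicates 3 and 2. On the log2 scale the fold change was 0.06 (95% interval -0.87 to 0.99), and -0.38 without cKO replicate 3.

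Hmox1, the inducible heme oxygenase (chromosome 8, 75093621 to 75100589, plus strand), showed the largest estimate among the members, and 1 control library set it. It had 14.3, 0.294 and 17.5 scaled CPM in control and 10.4, 13.3 and 22.5 in cKO. Control replicate 2 held 4 reads of the gene, against 132 to 534 in the other 5 libraries. Over all libraries the log2 fold change was 1.13 (SE 0.94, 95% interval -0.96 to 3.23), and it was -0.10 without control replicate 2.

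Nqo1, the quinone reductase (chromosome 8, 107388225 to 107403206, minus strand), had 2.77, 0 and 2.61 scaled CPM in control and 1.97, 0 and 2.86 in cKO. The 4 libraries with reads held 30 to 68 of them, and the libraries numbered 2 held 0, below floors of 0.221 and 0.303. Here the log2 fold change was -0.08 (95% interval -1.91 to 1.74).

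Over the members, 7 of 10 were lowest, or tied for lowest, in cKO replicate 2 (Gpx4, Slc7a11, Acsl4, Ftl1, Tfrc and, at 0, Slc40a1 and Nqo1), as were 34.5% of tested genes. This library had the fewest detected genes. The part of detection in these levels was not tested.

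**Figure D4:**
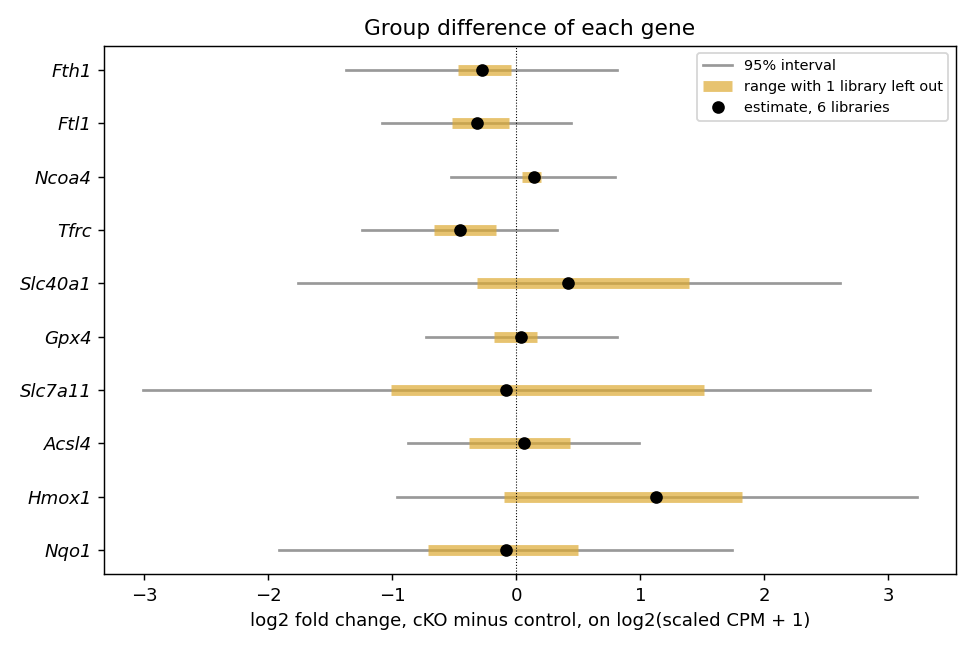
Log2 fold change, cKO minus control, of each gene on the log2(scaled CPM + 1) scale (black points), with the 95% interval of limma's fit (grey lines) and the range of estimates with 1 library left out (yellow bars). Every interval spans 0, the widest being that of Slc7a11, and the yellow bars stay below 0 for Fth1, Ftl1 and Tfrc and above 0 for Ncoa4.

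The wider pathway was read from 9 lists of 77 genes, of which 69 passed the filter on low values. By limma 0 of 69 were called after adjustment, against 0% of tested genes, and 36 were higher and 33 lower in cKO, where 48% of tested genes were higher. The median log2 fold change was 0.03, beside -0.02 over all tested genes. In 5 of the 69 the groups did not overlap, 4 with cKO above and 1 below. Over tested genes those shares are 2.45% and 2.26%.

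In iron uptake 5 of 9 tested genes were higher in cKO. The list's median of 0.25 on the log2 scale turned to -0.21 without control replicate 2 and -0.08 without cKO replicate 3. Named were the ferrireductase genes Steap2 (25.8 ± 18.8 in control and 33.8 ± 9.19 in cKO) and Steap3 (32.7 ± 13.5 and 23.4 ± 16.2), on opposite sides, with log2 fold changes of 0.04 for Steap2 without control replicate 2 and 0.05 for Steap3 without cKO replicate 2. Slc39a14, a zinc and iron importer, was at 68.1, 66.2 and 56.8 scaled CPM in control and 62.9, 170.0 and 56.4 in cKO, so its higher cKO mean came from replicate 2. Among the iron sensors and systemic regulators 3 of 5 were higher, and 2 of 5 without control replicate 3 or cKO replicate 1. Aco1, which encodes iron-regulatory protein 1, had 57.3, 74.8 and 46.9 scaled CPM in control and 59.4, 11.2 and 36.1 in cKO. Its log2 fold change of -0.98 (95% interval -2.20 to 0.23) was -0.33 without cKO replicate 2. Hfe and the hepcidin inducer Bmp6 had group means of at most 4.15. The iron chaperone genes Pcbp1 and Pcbp2 and the ferroxidase gene Heph had log2 fold changes of -0.30, 0.13 and -0.20. Of the 4 tested genes of that list 2 were higher. Leaving out control replicate 2 made this 0 and leaving out cKO replicate 2 made it 4.

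In the list of mitochondrial iron and iron-sulfur cluster genes 3 of 8 were higher in cKO, 6 of 8 without cKO replicate 2 and 7 of 8 with edgeR on 5 libraries. Iscu, the cluster scaffold, had 17.3, 8.97 and 15.3 scaled CPM in control and 19.6, 22.8 and 28.6 in cKO, and the groups did not overlap (log2 fold change 0.76, 95% interval -0.28 to 1.80). Nfs1, the cysteine desulfurase that feeds it, was at 16.9 ± 3.79 and 25.2 ± 5.02. Cisd2, an iron-sulfur protein gene, was at 49.6 to 67.9 in 5 libraries and at 7.47 in cKO replicate 2.

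All 7 tested genes of the heme list had a higher mean in cKO with the deposited scaling, with median-of-ratios factors and with quantile normalization, none of them called. Their median log2 fold change was 0.30, which became 0.12 without control replicate 3 and 0.13 with DESeq2 on 5 libraries. Without 1 library 6 or 7 of 7 were higher, and without both libraries numbered 2, 5 of 7. With no filter on low values 7 of 8 were higher, the other being Hpx, with group means of 0.673 in control and 0.564 in cKO. Fech, which inserts iron into heme, had 85.5, 53.8 and 72.5 scaled CPM in control and 97.0, 102.0 and 87.3 in cKO, without overlap (log2 fold change 0.45, 95% interval -0.23 to 1.14). Alas1, the first enzyme of heme synthesis, had 23.5, 27.3 and 42.3 in control and 24.1, 87.2 and 37.1 in cKO, so that replicate 2 alone lay above the controls. Blvrb, a biliverdin reductase gene, had group means of 2.00 ± 1.73 and 4.16 ± 1.38, with 0 in control replicate 2.

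For cystine, glutathione and selenoprotein supply 6 of 10 genes were higher in cKO. The count was 3 of 10 without control replicate 2 (median log2 fold change 0.09 with all libraries and -0.19 without it), 1 of 10 without both libraries numbered 2 (-0.30) and 4 of 10 with edgeR or DESeq2 on 5 libraries. Gclm, the modifier subunit of the enzyme that starts glutathione synthesis, had 45.3, 35.97 and 40.7 scaled CPM in control and 52.0, 65.7 and 48.1 in cKO, without overlap (log2 fold change 0.43, 95% interval -0.31 to 1.16). Its catalytic partner Gclc was at 53.1 ± 13.1 and 63.4 ± 8.24, with overlap. Cth, which makes cysteine from cystathionine, had group means of 1.68 and 0.465. Of the defences beside Gpx4, 3 of 8 were higher. This became 1 of 8 without control replicate 2 or without cKO replicate 3, 5 of 8 without cKO replicate 2 and 6 of 8 with edgeR or DESeq2 on 5 libraries. Aifm2, which encodes the ubiquinone reductase FSP1, was at 4.85 ± 2.31 and 2.79 ± 2.45, with 0 in cKO replicate 2 and a log2 fold change of -0.89 that was -0.10 without it. Coq2 and Dhodh, of ubiquinone synthesis and reduction, had log2 fold changes of -0.71 and -0.55, which were 0.13 and -0.04 without cKO replicate 2.

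In lipid supply and oxidation 4 of 12 genes were higher in cKO, and 6 of 12 without cKO replicate 2. Scd1, the desaturase that makes monounsaturated fatty acids, had 222.2, 341.0 and 250.6 scaled CPM in control and 156.9, 210.1 and 123.3 in cKO, without overlap. Its log2 fold change was -0.74 (SE 0.32, limma unadjusted p = 0.0439, adjusted p = 0.9996). It was the 1 gene of the 69 with limma's unadjusted p under 0.05, a level that 0.852% of tested genes passed. Under 16 alternatives the estimate ran from -0.99 to -0.55. As the groups did not overlap, leaving out libraries or changing the pseudocount could not turn its sign. Alox5, a lipoxygenase gene, had 4.52, 2.94 and 1.83 in control and 8.64, 30.1 and 4.25 in cKO, with a log2 fold change of 1.56 that was 0.85 without cKO replicate 2. Fads2, a desaturase of polyunsaturated fatty acids, was at 27.9 to 43.2 in 5 libraries and at 2.83 in cKO replicate 2.

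Among the transcriptional regulators 3 of 6 were higher in cKO, and 2 of 6 without control replicate 2 or cKO replicate 1. Nfe2l2 encodes NRF2, the activator of Hmox1, Nqo1 and Slc7a11 under oxidative stress. It had 70.7, 30.9 and 80.2 scaled CPM in control and 53.7, 5.86 and 38.8 in cKO. The log2 fold change of -1.21 (95% interval -2.81 to 0.39) was -0.29 without cKO replicate 2. Keap1, which marks NRF2 for destruction, had 22.9, 25.7 and 24.4 in control and 35.02, 40.1 and 27.9 in cKO, without overlap (log2 fold change 0.47, 95% interval -0.37 to 1.30). Maf had 0.808 in cKO replicate 2 and 11.9 to 30.4 elsewhere. The NRF2 binding motif was sought as TGACNNNGC on both strands in RefSeq promoter windows (GRCm38.p6, 250 bases before to 50 after each start). Hmox1 and Slc40a1 had no window and were not searched. Of 15 windows for the 8 members matched, 1, of Ncoa4, held it, against 12.4% of 32851 windows. Some windows of the same gene overlap, and sequence further upstream was not searched.

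**Figure D5:**
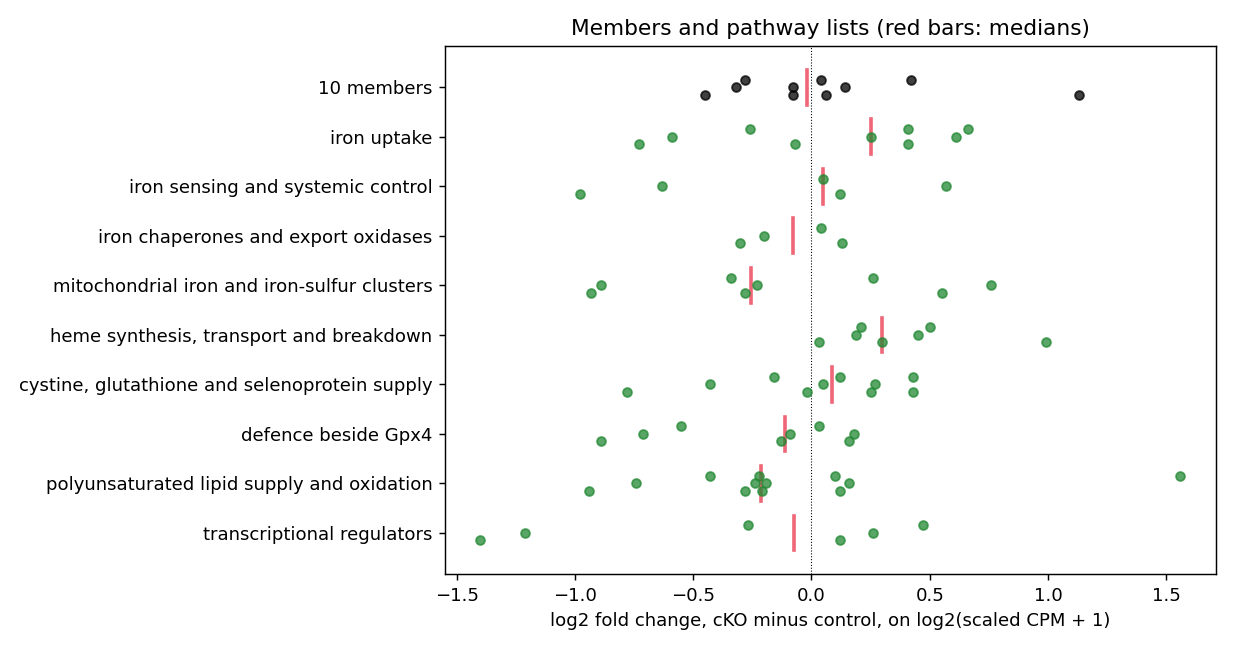
Log2 fold change, cKO minus control, on the log2(scaled CPM + 1) scale for the 10 members (black) and for the tested genes of each pathway list (green), 1 point a gene, with the list median in red. Points lie on both sides of 0 in every row but the heme list, whose 7 genes lie between 0.03 and 0.99.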

How the data were processed

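The authors deposited 1 table of values per gene and library, a signal in scaled CPM, not the plain CPM first assumed, whose column totals ran from 961962 to 1027958. Per the submitters' processing notes, edgeR, featureCounts, HISAT2 and Trimmomatic were used (versions not given) with the mm10 build; per the labels' protocols, tissue was treated with pronase for 75 minutes and Thy1+/ACSA2-/CD31-/CD45-/O4- cells were sorted. In each library 100% of values lay within 0.001 of a whole multiple of 1 step, so read numbers were taken as value over step. In cKO replicate 2 the step, 0.101, lies near 0.1 and the recovery was not taken as established: its read numbers are those the step implies, and count tests used the other 5 libraries.

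The main test was limma 3.58.1 (R 4.3.3) with eBayes moderation and its trend option, applied to log2(value + 1), which understates the change of low genes, with Benjamini-Hochberg adjustment at 0.05. It was tested on simulated data. Lists and members were chosen with earlier results of these data known. Named pathway genes are up to 3 tested genes per list by smallest unadjusted p, and the first gene of each marker list. Some others were named after their values were seen: Lum, Acta2, Dcn, Cdh5, Kl, Foxj1, Trf, Hpx, Alas2 and the globins. So were Mog, Mag, Cldn11, Col1a1, Col1a2, Col3a1, Rgs5 and Myh11. Hfe2 and Mfsd7b are the table's names for Hjv and Flvcr1. Alternatives were a replicate block, leaving out each library, quantile normalization, median-of-ratios factors, pseudocounts of 0.1 and 5, and dropping the filter or raising it to 5. Leaving out both libraries numbered 2, and edgeR 4.0.16 and DESeq2 1.42.0 on recovered reads, were chosen after seeing the data. Floors of 3 reads cover counting error only.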

Additional observations from a re-analysis of the deposited data

How the results depend on the processing

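No member and no named pathway gene was called under any of up to 16 alternatives each. Among members, 137 of 159 estimates kept the sign of the main fit and 22 did not; Fth1, Ftl1 and Tfrc kept it throughout. Among the 27 named pathway genes, 392 of 424 kept the sign and 32 did not. Those genes were picked by smallest unadjusted p in the main limma fit of the same libraries, which favours a kept sign. Dropping or raising the filter, or adding the replicate block, cannot change a gene's estimate. The signs under these settings, included in both counts, were therefore bound to hold. Over all genes, 0 were called higher or lower in every limma alternative and with edgeR (at an unadjusted p under 0.05, 11 higher and 41 lower), while DESeq2 on 5 libraries called 1 lower, Ifit3. The planned count tests on all 6 libraries were not run. The cause of the sign changes below was not tested, beyond the smaller number of libraries.

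Leaving out 1 library gave log2 fold changes of -0.18 to 0.17 for Gpx4, -1.01 to 1.51 for Slc7a11, -0.38 to 0.43 for Acsl4, -0.10 to 1.82 for Hmox1, -0.71 to 0.50 for Nqo1 and -0.32 to 1.39 for Slc40a1. It gave -1.22 to 0.05 for Steap3, -0.09 to 0.70 for Slc39a14, -1.28 to 0.09 for Bmp6, -0.63 to 0.10 for Pcbp1, -0.19 to 0.29 for Pcbp2, -1.03 to 0.53 for Heph, -0.01 to 0.90 for Alas1, -1.17 to 0.13 for Coq2 and -1.60 to 0.17 for Fads2. The median over members ran from -0.28 to 0.30.

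For Slc7a11 a pseudocount of 5 gave 0.08 and quantile normalization 0.15. Without both libraries numbered 2 the values were 0.59 for Slc7a11, -0.04 for Hmox1, -0.03 for Ncoa4, -0.06 for Slc39a14, 0.21 for Bmp6, -0.12 for Pcbp2, 0.69 for Heph, 0.04 for Cisd2, -0.07 for Alas1, -0.02 for Gclc, 0.39 for Coq2, 0.08 for Dhodh and 0.28 for Fads2. With edgeR they were 0.50 for Slc7a11, 0.43 for Nqo1, -0.10 for Slc39a14, 0.03 for Pcbp1, 0.11 for Heph, 0 for Cisd2, -0.03 for Alas1, 0.08 for Coq2 and 0.17 for Fads2. With DESeq2 they were 0.47 for Slc7a11, 0.40 for Nqo1, -0.13 for Slc39a14, 0.07 for Heph, -0.06 for Alas1, 0.05 for Coq2 and 0.14 for Fads2.

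The replicate block left 0 genes called, with a smallest adjusted p of 0.9875 by limma, and changed no call. Same-numbered libraries deviated together at r = 0.491, 0.301 and 0.034 across genes for replicates 1, 2 and 3. Each correlated best with its own number, but control replicate 3 had 0.028 with cKO replicate 2, close to its 0.034. Deviations were centred within each group, so these correlations are not independent of each other. They are a hint from the data and not from the design. Slc40a1 and Nqo1 had 0 reads in control replicate 2, which was deeper (13077507 reads) than control replicate 1 (10638387 reads, 30 of each gene).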

Other observations

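Transferrin itself, encoded by Trf and made in brain mainly by oligodendrocytes and choroid plexus, had 4539, 1670.4 and 5225 scaled CPM in control and 6546, 1489 and 1182 in cKO, and was chosen for mention after its values were seen. Control replicate 2, cKO replicate 2 and cKO replicate 3 were low and the other 3 libraries high, so its order differed from that of Fth1, which was highest in control replicate 2. The summed oligodendrocyte markers ranked the libraries as Trf did, except that control replicates 1 and 3 changed places. That sum was nearly level in control replicate 3 (21990), control replicate 2 (21899) and cKO replicate 2 (21012). The 5 choroid plexus and ependyma markers summed to 3.83 to 35.9, with Ttr at most 0.816, Kl 0.278 to 9.90 and Foxj1 1.40 to 26.0. The part of either marker list in the Trf level was not tested.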
